A study of Mus musculus with 12 samples.

Results

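The BCL-2 family decides whether a T cell survives or dies through its mitochondria, and the open chromatin around 8 of its genes is described here in mouse CD4+ T cells. The genes are Bcl2, Bcl2l1 (which encodes BCL-xL) and Mcl1, whose proteins protect cells, Bax and Bak1, whose proteins permeabilize the outer mitochondrial membrane, and Bcl2l11 (BIM), Pmaip1 (NOXA) and Bbc3 (PUMA), which encode BH3-only proteins that trigger death. Members were the peaks of each deposited list that overlapped the body of 1 of these genes or the 20 kb on either side of it (GRCm38). Merged over all libraries they gave 136 of 110642 open regions, 81 in the gene bodies and 55 outside them. All 8 genes had such regions, among 21631 protein-coding genes of the gene table.

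In resting T cells BCL-2 and MCL-1 bind BIM and hold BAX and BAK inactive, and loss of cytokine signals tips that balance towards BIM and PUMA. Activated T cells are known to use BCL-xL and to contract through BIM. NOXA binds MCL-1 and is known to be induced by T cell activation, while PUMA is a classic p53 target.

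ATAC-seq, in which the Tn5 transposase tags accessible DNA, was run on Th1, Th2 and naive CD4+ T cells from the spleen. Knockout (KO) cells came from the strain C57BL/6J-Ets1-SE-KO, in which a super-enhancer of the ETS factor gene Ets1 is removed per its name, and wild-type (WT) cells from C57BL/6J mice. Th1 cells had been cultured for 6 days on anti-CD3 with IL-12, IL-2 and anti-CD28, and Th2 cells for 6 days with IL-4, anti-IFN-gamma and anti-CD28 on coated plates. The groups were Th1 KO, Th1 WT, Th2 KO, Th2 WT, naive KO and naive WT, with 2 libraries each. No age or sex is stated for the mice. The Th1 and Th2 libraries are biological replicates by their titles, whereas both naive libraries of a genotype are technical replicates of 1 sample, so p-values against naive cells cover less than the spread between animals. The 2 libraries taken as Th2 KO are titled Th1 and numbered technical replicate 2 of biological replicates 1 and 2. Their source name says Th2 cells. Both had a peak within 1 kb of the start of Il5, as both Th2 WT and no other libraries had. At the start of the Th1 gene Tbx21, Th2 KO replicate 1 had a peak and replicate 2 had none.

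Starts of these genes differed in copies of CCGGAA, a form of ETS site called the ETS core here. Promoters of 4 of them are shown with each copy, or its reverse complement, in capitals. GGAA without the leading CC was not searched for as an ETS site. Each runs 5′ to 3′ on the gene's strand from 250 bases before to 50 bases after a RefSeq start (GRCm38.p6). RefSeq entries covered 7 of the 8 genes with 12 starts, and none was used for Pmaip1. The promoters are those of Mcl1 at chr3:95658471-95658770 (plus strand), Bcl2l1 at chr2:152831679-152831978 (minus strand, the farthest upstream of its 3 starts), Bcl2l11 at chr2:128125788-128126087 (plus strand, the first of its 2 starts) and Bcl2 at chr1:106714241-106714540 (minus strand).
Mcl1: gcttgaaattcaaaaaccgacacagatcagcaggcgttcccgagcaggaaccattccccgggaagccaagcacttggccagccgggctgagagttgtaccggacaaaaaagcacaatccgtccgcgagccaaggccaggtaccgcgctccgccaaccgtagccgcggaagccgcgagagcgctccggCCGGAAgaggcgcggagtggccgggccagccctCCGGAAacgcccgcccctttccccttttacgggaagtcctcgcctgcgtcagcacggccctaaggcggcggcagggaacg
Bcl2l1: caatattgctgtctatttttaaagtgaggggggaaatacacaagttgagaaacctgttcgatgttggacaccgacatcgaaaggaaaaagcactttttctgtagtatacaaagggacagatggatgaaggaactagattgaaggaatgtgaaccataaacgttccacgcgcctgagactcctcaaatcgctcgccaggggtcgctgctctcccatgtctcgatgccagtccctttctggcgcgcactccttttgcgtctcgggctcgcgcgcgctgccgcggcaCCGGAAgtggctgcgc
Bcl2l11: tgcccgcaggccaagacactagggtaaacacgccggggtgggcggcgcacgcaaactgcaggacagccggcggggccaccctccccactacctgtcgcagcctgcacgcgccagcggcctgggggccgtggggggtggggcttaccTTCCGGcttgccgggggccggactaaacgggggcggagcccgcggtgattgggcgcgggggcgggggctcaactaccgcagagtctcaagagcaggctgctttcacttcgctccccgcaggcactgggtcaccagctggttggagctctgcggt
Bcl2: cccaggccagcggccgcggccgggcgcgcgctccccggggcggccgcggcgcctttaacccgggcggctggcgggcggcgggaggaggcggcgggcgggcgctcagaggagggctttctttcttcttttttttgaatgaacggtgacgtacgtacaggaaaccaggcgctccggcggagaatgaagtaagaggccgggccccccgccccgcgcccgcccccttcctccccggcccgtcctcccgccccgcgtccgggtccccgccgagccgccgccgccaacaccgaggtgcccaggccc
The core stood in 3 of the 12 promoters, against 14.9% of 32851 mouse promoters of the same length. Mcl1 held 2 copies, Bcl2l1 and Bcl2l11 1 each, and the promoters of Bcl2, Bax, Bak1 and Bbc3 none. The longer CCGGAAGT, which overlaps the core, stood only in Bcl2l1 among them and in 3.89% of all promoters. On both strands TGACGTCA (CRE), TGAGTCA (AP-1) and TTCNNNGAA (STAT) were in none of the 12, TGTTTAC (FOXO) was in 1 promoter each of Bbc3 and Bcl2l11, and TGTGGTT (RUNX) was in that of Bak1. A match of letters is no measured binding.

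The lists held 34746 to 56357 peaks on chromosomes 1 to 19 and X, with no read counts. Depth is therefore unknown, and a region without a peak was merely not called there. Their median −log10 q-value was 3.39 to 4.14 in Th1 and Th2 lists, 4.93 and 5.67 in naive KO and 8.20 and 9.78 in naive WT. B cell markers set the naive KO libraries apart. They had a peak at the start of 9 and 8 of 9 such genes (Cd79a, Pax5 and others), where naive WT had 2 and 1 and the other libraries 1 or 2, Ebf1 being one of them in every library. For red cell genes the counts were 2 and 3 of 6 in naive KO, among them Hbb-bt and Hbb-bs, against 0 in naive WT. T cell markers had 6 to 8 of 8 in every library, with no peak at the start of Cd4 in Th1 KO replicate 2, Th2 WT replicate 1 and naive KO replicate 2. Of 4 genes on chromosome Y, naive KO libraries had a peak at none and the other 10 libraries at all. Naive and polarized libraries carry different run-like codes in their deposited names, so run and cell state cannot be told apart.

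The values below are of 2 kinds. The strength percentile is the place of a peak's −log10 q-value within its own list, from 0 to 100. The total rank of a gene is the sum, over its peaks with 20 kb on each side, of the same place written from 0 to 1, so it joins number and strength and grows with the length of the list. Each library had a peak in 59 to 85 of the 136 regions, which was 0.130% to 0.175% of its open regions. A peak in all 12 libraries was found at 25 of them (18.4%), against 15.0% of regions within 20 kb of any protein-coding gene, and a peak in 1 library at 21 (15.4%), against 20.8%. At the edge of the 20 kb, the farthest peak inside lay 19.9 kb from Pmaip1, with a peak in 2 libraries, and the nearest outside 20.4 kb from it, with a peak in 5, while the peak next outside at Bbc3, 21.2 kb away, was in all 12.

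Each of the 7 genes with a start in the promoter table had a peak at 1 or more of its starts in all 12 libraries. For Pmaip1, whose start was not used here, the region at the lower-coordinate end of the gene is given, and of the 3 starts of Bcl2l1 the one farthest downstream had no peak in any library. At Bcl2 the region chr1:106713776-106714867 stood at percentiles 56.0 and 52.1 in Th1 KO, 43.9 and 67.6 in Th1 WT, 14.6 and 40.0 in Th2 KO, 55.5 and 31.5 in Th2 WT, 63.6 and 76.5 in naive KO and 74.3 and 78.8 in naive WT. Each polarized WT library was below both naive WT libraries there. The start of Bcl2l1 (chr2:152830284-152831943) lay at 67.0 to 90.9 and that of Mcl1 (chr3:95658226-95659737) at 65.4 to 84.5 over all 12 libraries. Bax (chr7:45466382-45467187) ranged over 24.5 to 65.2 at its start, Bak1 (chr17:27028333-27028883) over 32.5 to 83.7 and Bbc3 (chr7:16309054-16310603) over 25.6 to 74.1. Thus the starts of the Bcl2l1 and Mcl1 genes kept to the upper part of every list, and those of Bax, Bak1 and Bbc3 reached lower and ranged more widely. The region at the end of Pmaip1 (chr18:66458073-66459075) ranged over 49.5 to 88.3. Bcl2l11 has 2 starts. The region at the first (chr2:128125608-128126403) had no peak in Th2 KO replicate 2 and Th2 WT replicate 1, and the one at the second (chr2:128127163-128128133) had a peak in all 12 libraries, at 14.9 to 72.1. In the fits below no start region passed the threshold in any WT or KO-against-WT comparison, and 1, that of Bcl2, passed it between KO groups.

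**Figure D1:**
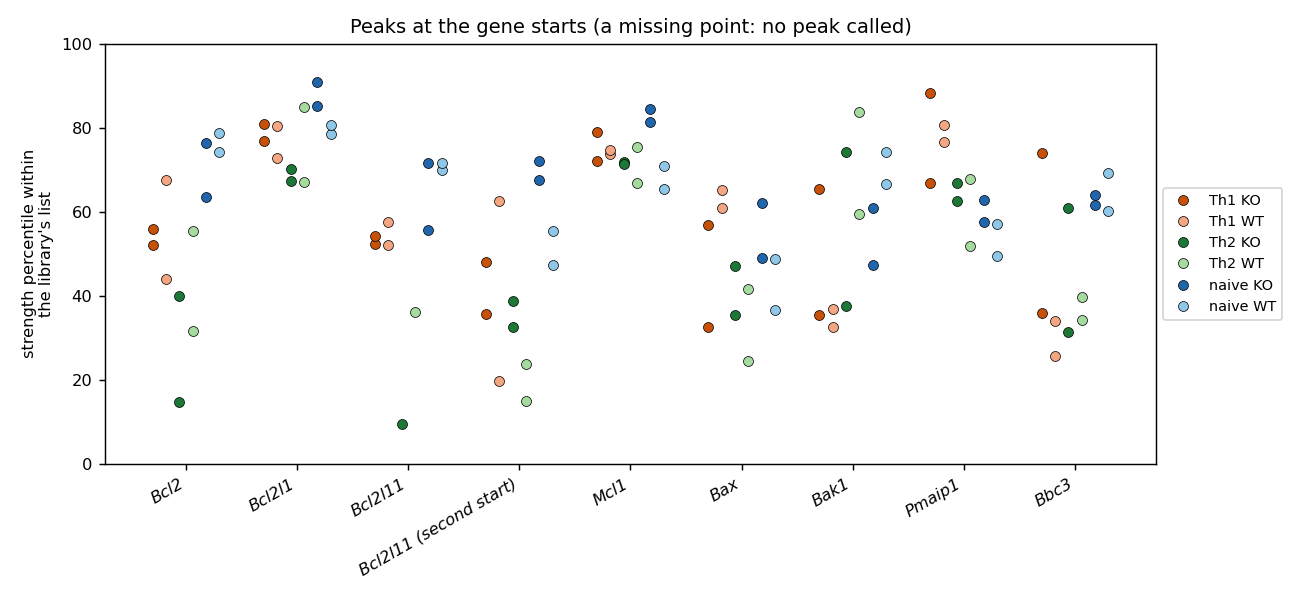
Strength percentile (0 to 100 within each library's list, y axis) of the peak at each gene start, 1 point per library coloured by group, with the lower-coordinate end for Pmaip1. Bcl2l1 and Mcl1 points stay at 65.4 or above, and the first start of Bcl2l11 lacks a point in 1 Th2 KO and 1 Th2 WT library.

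Polarized and naive WT cells differed in which regions of the family were open, in shares below those of all regions. Regions open in both Th1 WT and in neither naive WT library (opened) numbered 16 of 55 (29.1%), against 33.3% of all regions, and those with a peak in both naive WT and in no Th1 WT library (closed) 26 of 76 (34.2%), against 46.6%. In Th2 WT against naive WT, 17 of 63 opened (27.0%, against 44% of all) and 24 of 76 closed (31.6%, against 42%). No test is given for these counts, because with 2 libraries on each side the smallest exact p is 0.333. Both comparisons use the same naive WT libraries. The differences between family and genome were not tested.

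Strength was compared by limma on the normal score of the within-list rank, over the 14561 regions with a peak in all 12 libraries, 25 of them in the family. In Th1 WT against naive WT, 7 of the 25 were lower and 0 higher, with 15.9% of all regions lower and 7.11% higher. In Th2 WT against naive WT, 6 of the 25 were lower and 0 higher, with 12.7% lower and 6.6% higher among all. The median difference was −0.42 over the family and −0.18 over all regions for Th1, and −0.43 and −0.17 for Th2. With as many peaks from each library as the shortest list has (34746, equal lists below), 14 of the 25 could be tested, and 0 were lower and 1 higher in Th1 WT, 5 lower and 0 higher in Th2 WT, while the median over all regions was 0.11 and −0.16. No call in Th1 WT was among those kept with equal lists. Leaving out either naive WT library left 0 calls in Th1 WT, leaving out Th1 WT replicate 2 left 1 and either naive KO library 4, and in Th2 WT leaving out naive WT replicate 2 or Th2 WT replicate 2 left 3.

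Total rank was fitted the same way over 17340 protein-coding genes. In Th1 WT against naive WT it fell at 4 of the 8 genes (Bcl2l11, Bax, Bak1 and Bbc3) and rose at 1 (Pmaip1), with 36% of all genes lower and 7.77% higher. In Th2 WT it fell at 3 (Bcl2l11, Bax and Bbc3) and rose at Pmaip1, with 26.3% lower and 17.1% higher. The median difference over all genes was −0.35 for Th1 WT and −0.11 for Th2 WT, and with equal lists 0.01 and −0.06. With equal lists the calls were higher at Bcl2 and Pmaip1 and lower at Bbc3 in both, and lower also at Bax in Th2 WT. With a −log10 q-value of at least 3, however, Bcl2 was lower in Th1 WT, by −2.94 (adjusted p = 0.0254). Without naive WT replicate 2 or Th1 WT replicate 2 the calls in Th1 WT numbered 3.

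**Figure D2:**
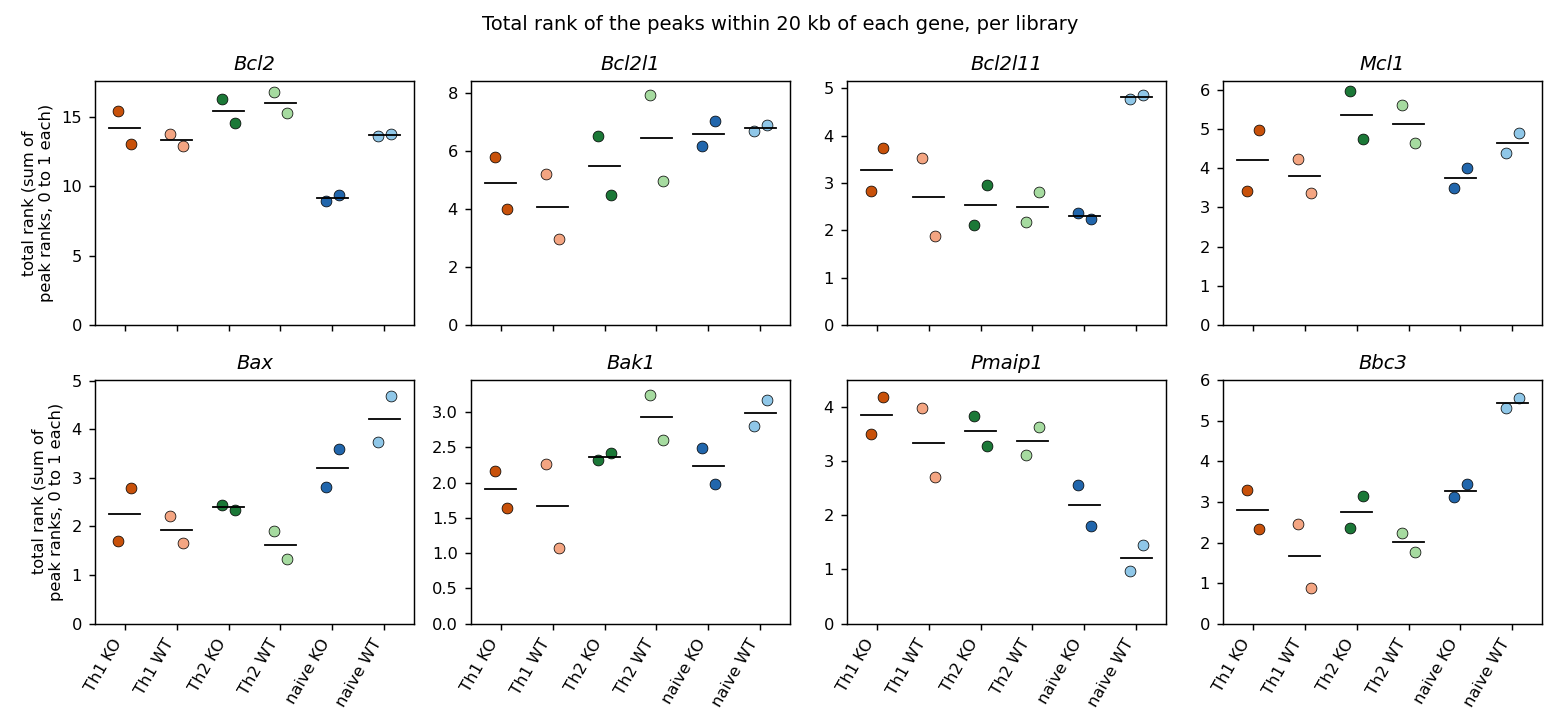
Total rank (sum over peaks of their within-list rank, 0 to 1 each, y axis) of each gene in each library, grouped along the x axis, with black lines at group means of 2 libraries. Pmaip1 is higher in all polarized libraries (2.70 to 4.18) than in naive ones (0.970 to 2.56), and Bcl2l11 and Bbc3 are highest in naive WT.

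Bcl2 had the most regions, 48 over its 176 kb, 6 of them open in all 12 libraries, and some parts of the gene had peaks in polarized cells alone or in naive cells alone, in shares near those of all regions. Of 16 Bcl2 regions with a peak in every polarized library, 5 had none in a naive library (31.2%, against 27.6% of all such regions), and all 5 lay in the gene body. One of them, chr1:106560914-106561619, 153 kb into the gene from its start, stood at 97.4 and 94.4 in Th1 KO, 84.9 and 89.5 in Th1 WT, 95.1 and 89.3 in Th2 KO, and 94.7 and 91.4 in Th2 WT. Another, chr1:106585226-106585769, 129 kb into the gene, stood at 91.6 and 92.0 in Th1 KO, 87.2 and 89.9 in Th1 WT, 92.9 and 92.7 in Th2 KO, and 96.9 and 95.4 in Th2 WT. Both were thus among the strong peaks of every polarized list, with no peak called in naive cells. The other three of the kind, at chr1:106567477-106567826, chr1:106586338-106586793 and chr1:106650544-106651198, ranged over 14.8 to 91.7. Over the 8 genes the count was 9 of 43 (20.9%, against the same 27.6%). This split, and the regions named from it, were chosen after the values were seen. With only peaks of a −log10 q-value of at least 3, the count over the 8 genes was 4. The share over all regions with that limit is not given here.

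Other Bcl2 regions were the reverse. The region chr1:106548979-106549497 had a peak in no polarized library, at percentiles 61.5 and 66.6 in naive KO and 88.3 and 87.0 in naive WT, and chr1:106695747-106696136 likewise, at 58.6 and 52.3 in naive KO and 15.7 and 22.1 in naive WT. These were 2 of the 10 Bcl2 regions with a peak in every naive library (20%, against 18.6% of all), and over the 8 genes the count was 4 of 46 (8.7%). Without the naive KO libraries it was 20, under a looser rule that can only keep or raise the count. The share over all regions under that rule is not given here, so the 20 is not read as a result about the family. Among regions open everywhere, chr1:106647253-106647811 stood at 89.8 and 91.3 in Th1 WT and 69.6 and 79.7 in Th2 WT, against 97.2 and 98.1 in naive WT. The difference in normal score was −0.67 (SE 0.22, adjusted p = 0.0384) for Th1 WT and −1.32 (SE 0.22, adjusted p = 0.000665) for Th2 WT. The region chr1:106600682-106601605 changed too, by −1.05 (SE 0.29, adjusted p = 0.0147) in Th1 WT and −1.39 (SE 0.29, adjusted p = 0.00296) in Th2 WT. Between KO groups chr1:106612370-106613770 rose, at 91.3 and 97.7 in Th1 KO and 96.5 and 86.6 in Th2 KO, against 62.9 and 80.7 in naive KO, with differences of 1.08 (SE 0.28, adjusted p = 0.0164) and 0.86 (SE 0.28, adjusted p = 0.0421). The start of Bcl2 changed in Th2 KO against naive KO, by −1.19 (SE 0.36, adjusted p = 0.0300), and so did chr1:106647253-106647811, by −0.74 (SE 0.22, adjusted p = 0.0305). Of the 20 strength calls over these 4 comparisons of polarized with naive cells, 3 were kept with each library left out in turn, those of Th2 WT at chr1:106600682-106601605, chr1:106647253-106647811 and the Bcl2l1 region chr2:152788871-152790050.

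**Figure D3:**
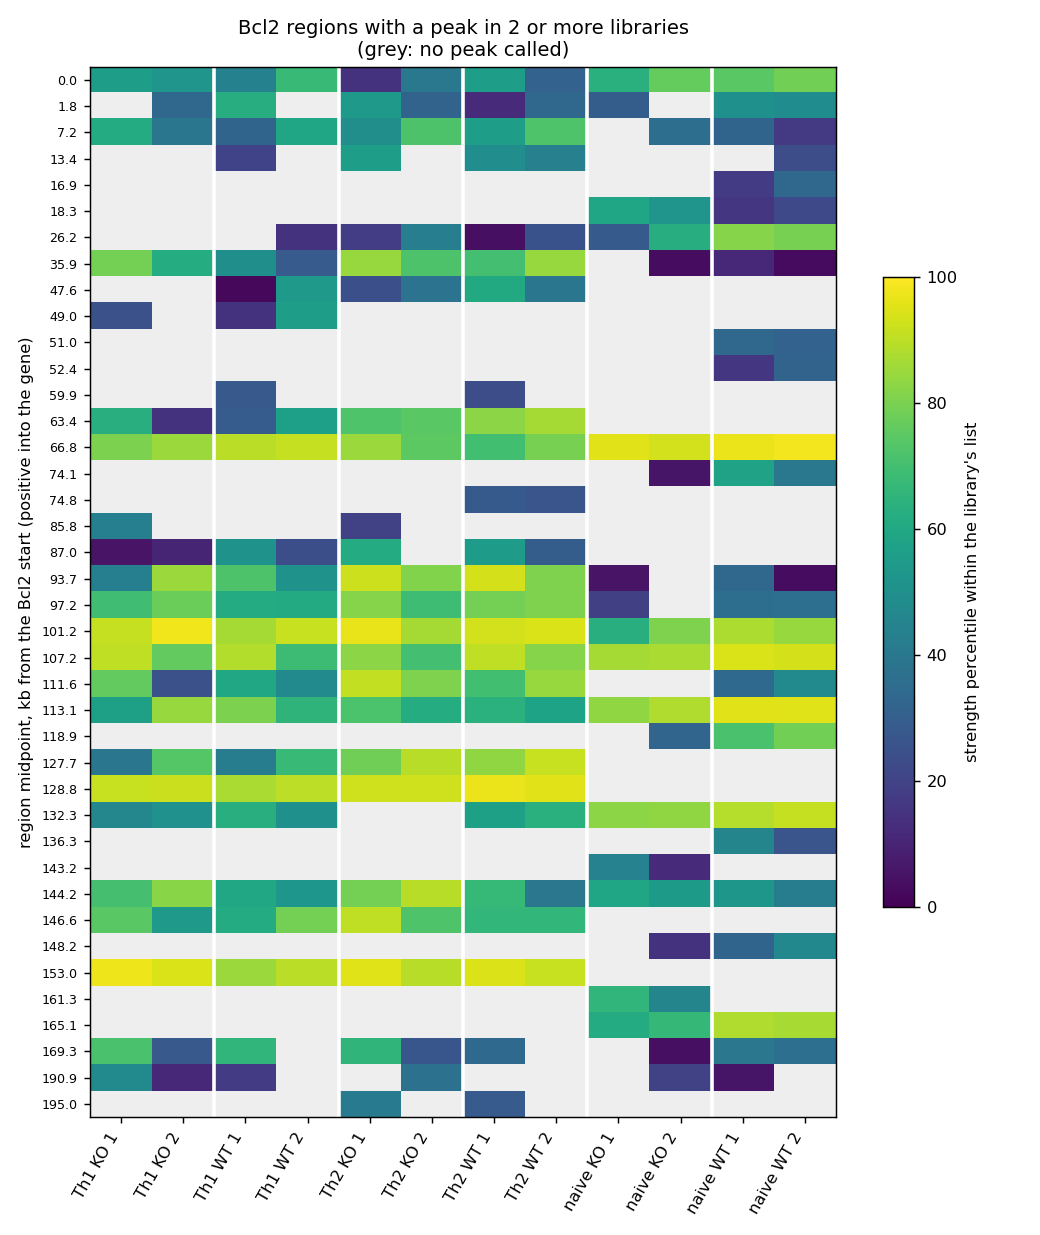
Strength percentile (colour, 0 to 100 within the library's list, grey where no peak was called) of the 40 Bcl2 regions with a peak in 2 or more libraries, ordered by distance of the midpoint from the gene start in kb (y axis), for each library (x axis). Regions 127.7, 128.8, 146.6 and 153.0 kb into the gene are filled in the 8 polarized columns and grey in the 4 naive columns.

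Summed over the gene, Bcl2 had total ranks of 15.4 and 13.0 in Th1 KO, 13.8 and 12.9 in Th1 WT, 16.2 and 14.5 in Th2 KO, 16.8 and 15.2 in Th2 WT, 8.92 and 9.36 in naive KO and 13.6 and 13.7 in naive WT. Only the naive KO libraries stood clear of the rest. The differences from naive WT were −0.34 (SE 1.14, adjusted p = 0.865) in Th1 WT and 2.34 (SE 1.14, adjusted p = 0.125) in Th2 WT. With equal lists they were 3.81 (adjusted p = 0.0112) and 3.48 (adjusted p = 0.0144). With a −log10 q-value of at least 3 they were −2.94 (adjusted p = 0.0254) and −0.25 (adjusted p = 0.851). The direction thus depended on the processing. The naive KO libraries are also those with B cell and red cell gene starts open and no peak at the chromosome Y genes, whose part in the differences from them was not tested. Against naive KO, Bcl2 was higher by 5.05 (SE 1.14, adjusted p = 0.00945) in Th1 KO, where 13.6% of all genes were higher, and by 6.24 (SE 1.14, adjusted p = 0.00246) in Th2 KO, where 23.2% were. With equal lists these were 3.96 (adjusted p = 0.00966) and 3.84 (adjusted p = 0.00891). The first was lost without Th1 KO replicate 1 (3.86, adjusted p = 0.0692) and without either naive KO library (adjusted p-values of 0.0598 and 0.0508).

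Bcl2l1, the gene of BCL-xL, had 21 regions, 5 of them open in all libraries. In the fit as reported its total rank passed the threshold in no WT comparison. It was 5.79 and 4.01 in Th1 KO, 5.21 and 2.97 in Th1 WT, 6.52 and 4.48 in Th2 KO, 7.93 and 4.97 in Th2 WT, 6.17 and 7.06 in naive KO and 6.71 and 6.91 in naive WT. The replicates of the polarized groups were far apart and overlapped each other. With a −log10 q-value of at least 3, Bcl2l1 changed by −3.80 (adjusted p = 0.000758) in Th1 WT and −2.42 (adjusted p = 0.00884) in Th2 WT against naive WT. With ranks of fold enrichment these were −4.43 (adjusted p = 0.000986) and −2.50 (adjusted p = 0.0195). With equal lists neither passed, at −1.43 (adjusted p = 0.0790) and −0.97 (adjusted p = 0.203). With a replicate block it was −2.36 in Th1 WT against Th2 WT (adjusted p = 0.0342). Single regions did move. The one at chr2:152787313-152788015 was open in all 8 polarized libraries (10.4 to 81.7) and no naive one, and chr2:152775320-152776126 in no polarized one, at 80.8 and 83.4 in naive KO and 91.4 and 90.4 in naive WT. The strongest constant region, chr2:152847609-152848425, 13.8 kb upstream of the gene within Tpx2, stood at 93.8 and 89.3 in Th1 WT and 92.7 and 82.6 in Th2 WT, against 98.0 and 98.9 in naive WT. It changed by −0.78 (SE 0.22, adjusted p = 0.0167) in Th1 WT and −0.97 (SE 0.22, adjusted p = 0.00506) in Th2 WT, and by −0.83 (SE 0.22, adjusted p = 0.0149) in Th2 KO against naive KO. The intragenic region chr2:152788871-152790050 changed by −1.15 (SE 0.38, adjusted p = 0.0365) in Th1 WT and −1.92 (SE 0.38, adjusted p = 0.00212) in Th2 WT.

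Mcl1 is 6.24 kb long, and 13 of its 14 regions lay outside the gene. Upstream and just downstream of it, 3 regions were open in all 8 polarized and no naive library. The farthest, chr3:95637855-95638619, 18.3 kb upstream, stood at 64.2 and 90.4 in Th1 KO, 80.8 and 66.8 in Th1 WT, 95.0 and 95.8 in Th2 KO, and 91.2 and 93.0 in Th2 WT. All Th2 libraries were above all Th1 libraries there. The others, chr3:95648042-95648510 and chr3:95663930-95664512, ranged over 2.24 to 76.6. Downstream, chr3:95673918-95674806 was stronger in naive cells, at 60.6 and 67.6 in Th1 WT and 70.8 and 54.5 in Th2 WT, against 91.1 and 92.0 in naive WT. It changed by −1.02 (SE 0.26, adjusted p = 0.0114) in Th1 WT, by −1.05 (SE 0.26, adjusted p = 0.0107) in Th2 WT, and by −0.98 (SE 0.26, adjusted p = 0.0170) in Th2 KO against naive KO. Total rank of Mcl1 was 3.38 to 4.98 in Th1, 4.66 to 5.97 in Th2 and 3.50 to 4.90 in naive libraries. As reported, it passed the threshold in no comparison. In Th1 WT against naive WT it changed by −1.97 with a −log10 q-value of at least 3 (adjusted p = 0.0165). There it was −1.39 with ranks of fold enrichment (adjusted p = 0.0193) and 0.67 with equal lists (adjusted p = 0.271). Against naive KO it was 1.56 in Th2 KO with ranks of fold enrichment (adjusted p = 0.0153) and −0.74 in Th1 KO within 5 kb (adjusted p = 0.0275).

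Bax and Bak1 had few regions of their own. The 7 regions of Bax held 1 in the gene and 1, chr7:45458986-45460282, at the start of the neighbour Ftl1, and others lay in Gys1 and Dhdh, so that 5 of the 7 lay in other genes. The Bax total rank was 1.71 and 2.79 in Th1 KO, 2.21 and 1.66 in Th1 WT, 2.44 and 2.35 in Th2 KO, 1.91 and 1.33 in Th2 WT, 2.81 and 3.60 in naive KO and 3.75 and 4.69 in naive WT. No polarized WT library reached a naive WT one. It changed by −2.28 (SE 0.45, adjusted p = 0.00283) in Th1 WT and −2.60 (SE 0.45, adjusted p = 0.00137) in Th2 WT, and with equal lists by −0.84 (adjusted p = 0.119) and −1.73 (adjusted p = 0.00559). Within 5 kb of the gene the differences were −0.68 (adjusted p = 0.169) in Th1 WT and −1.10 (adjusted p = 0.0367) in Th2 WT. In Th1 WT 4 of 7 regions closed (57.1%, against 46.6% of all), and they lay 3.96 to 14.5 kb from the gene. Bak1, whose start region lies within the neighbour Ggnbp1, had 9 regions. Its total rank was 2.16 and 1.65 in Th1 KO, 2.27 and 1.08 in Th1 WT, 2.32 and 2.42 in Th2 KO, 3.25 and 2.61 in Th2 WT, 2.49 and 1.98 in naive KO and 2.80 and 3.18 in naive WT. The difference of Th1 WT from naive WT was −1.31 (SE 0.40, adjusted p = 0.0235), −0.60 with equal lists (adjusted p = 0.175) and −0.72 without Th1 WT replicate 2 (adjusted p = 0.174). The call was also lost without either naive WT library, at adjusted p-values of 0.0530 and 0.139. In the gene, chr17:27027258-27027963 changed by −0.90 (SE 0.31, adjusted p = 0.0490) in Th1 WT.

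Of the BH3-only genes, Pmaip1 had more open chromatin by total rank in polarized than in naive cells of both genotypes. Bbc3 had less in polarized WT cells, while in KO cells a fall passed only in some alternative fits. The region of Pmaip1 at chr18:66453126-66453949, 4.66 kb from the lower-coordinate end of the gene, stood at 94.6 and 89.0 in Th1 KO, 96.3 and 90.9 in Th1 WT, 96.7 and 96.5 in Th2 KO, 96.4 and 96.0 in Th2 WT and 53.9 and 31.6 in naive KO. In naive WT it had no peak in replicate 1 and stood at 14.4 in replicate 2. It thus ranked higher in each polarized list than in any naive one, and having no peak in 1 library it was outside the strength fit. Total rank of Pmaip1 was 3.50 and 4.18 in Th1 KO, 3.97 and 2.70 in Th1 WT, 3.83 and 3.27 in Th2 KO, 3.12 and 3.62 in Th2 WT, 2.56 and 1.81 in naive KO and 0.970 and 1.44 in naive WT. All polarized libraries were above all naive ones. It rose by 2.13 (SE 0.47, adjusted p = 0.00486) in Th1 WT and 2.16 (SE 0.47, adjusted p = 0.00444) in Th2 WT over naive WT. Against naive KO it rose by 1.66 (SE 0.47, adjusted p = 0.0249) in Th1 KO and 1.37 (SE 0.47, adjusted p = 0.0440) in Th2 KO, the last at 0.75 with equal lists (adjusted p = 0.131). Both of these were lost when 1 library was left out, down to 1.28 (adjusted p = 0.169) and 0.99 (adjusted p = 0.249) without naive KO replicate 2. With each library left out in turn, the WT rises kept adjusted p-values of 0.0418 or below for Th1 and 0.0392 or below for Th2. Within 5 kb of the gene they were 1.19 and 1.03 (adjusted p = 0.000378 and 0.000692).

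Bbc3, the gene of PUMA, had total ranks of 3.30 and 2.33 in Th1 KO, 2.46 and 0.874 in Th1 WT, 2.36 and 3.14 in Th2 KO, 2.24 and 1.76 in Th2 WT, 3.11 and 3.44 in naive KO and 5.32 and 5.55 in naive WT. Both naive WT libraries were above all others. It changed by −3.77 (SE 0.52, adjusted p = 0.000383) in Th1 WT and −3.44 (SE 0.52, adjusted p = 0.000623) in Th2 WT. These falls held with equal lists, at −1.68 (adjusted p = 0.00402) and −2.35 (adjusted p = 0.000527), and with each library left out in turn, where the adjusted p reached at most 0.00789. Within 5 kb of the gene they were −1.08 (adjusted p = 0.0103) in Th1 WT and −0.66 (adjusted p = 0.0720) in Th2 WT. Against naive KO the differences did not pass, at −0.46 (SE 0.52, adjusted p = 0.559) in Th1 KO and −0.53 (SE 0.52, adjusted p = 0.469) in Th2 KO. With equal lists these were −0.90 (adjusted p = 0.0640) and −1.45 (adjusted p = 0.00678). With a −log10 q-value of at least 3 they were −1.56 (adjusted p = 0.0147) and −1.44 (adjusted p = 0.0184). Within 5 kb, and with ranks of fold enrichment, neither passed. Of its 13 regions, 10 had a peak in both naive WT libraries, and 5 of these closed in Th1 WT and 5 in Th2 WT. That was 50% in each, near the 46.6% and 42% of all regions. Of the 5, 4 lay in the neighbour Sae1 and 1 in the gene. The upstream region chr7:16294484-16295918 stood at 58.8 and 24.7 in Th1 WT and 59.7 and 40.6 in Th2 WT, against 83.5 and 83.1 in naive WT, and changed by −1.20 (SE 0.32, adjusted p = 0.0128) and −0.96 (SE 0.32, adjusted p = 0.0426).

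At Bcl2l11, the gene of BIM, total rank was 2.83 and 3.73 in Th1 KO, 3.54 and 1.89 in Th1 WT, 2.12 and 2.97 in Th2 KO, 2.17 and 2.81 in Th2 WT, 2.36 and 2.24 in naive KO and 4.77 and 4.86 in naive WT. Only naive WT stood apart. It changed by −2.10 (SE 0.53, adjusted p = 0.0100) in Th1 WT and −2.32 (SE 0.53, adjusted p = 0.00602) in Th2 WT, and with equal lists differed by −0.25 (adjusted p = 0.650) and −0.86 (adjusted p = 0.0914). In Th1 WT it was −1.27 without Th1 WT replicate 2 (adjusted p = 0.0698) and the call was also lost without naive WT replicate 2, at −2.06. Its strongest region in polarized cells, chr2:128117465-128118210, lies 7.83 kb upstream within Acoxl. It stood at 91.8 and 89.7 in Th1 KO, 93.0 and 68.8 in Th1 WT, 96.3 and 96.1 in Th2 KO and 90.9 and 96.4 in Th2 WT. In naive WT it stood at 53.9 and 31.6, and naive KO libraries had no peak there. The intragenic chr2:128152656-128153932 was the reverse, with a peak in only 1 Th1 KO and 1 Th1 WT library among the polarized ones, at 35.8 and 11, against 70.7 and 67.5 in naive KO and 83.0 and 80.9 in naive WT.

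The polarized KO cells were also set against naive KO cells, which they share as controls. In Th1 KO against naive KO 19 of 57 regions opened (33.3%, against 41.7% of all) and 15 of 53 closed (28.3%, against 35.2%), and in Th2 KO against naive KO 16 of 61 opened (26.2%, against 48.3%) and 13 of 53 closed (24.5%, against 33.1%). In strength 1 of 25 was higher and 0 lower in Th1 KO, with 6.54% of all regions higher and 8.23% lower, and 1 was higher and 5 lower in Th2 KO, with 7.64% and 10.1% among all. Total rank rose at 2 of 8 genes, Bcl2 and Pmaip1, in both and fell at none, with 13.6% of all genes higher and 15.4% lower in Th1 KO and 23.2% higher and 13.1% lower in Th2 KO. In Th1 KO against Th2 KO, 3 of 57 opened (against 6.82% of all) and 5 of 61 closed (against 16.2%).

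Few regions of the family were opened or closed between Th1 and Th2 cells of the wild type, and no call was made in the fits as reported. In Th1 WT against Th2 WT, 2 of 55 regions opened (3.64%, against 5.85% of all), at chr1:106665096-106665506 in Bcl2 and chr7:16299643-16300089 upstream of Bbc3, and 1 of 63 closed (1.59%, against 19.9%), at chr1:106639332-106639711 in Bcl2. No family region differed in strength by limma, with 4 of 25 at an unadjusted p under 0.05 (17.2% of all regions), while 0.494% of all regions were higher and 1.02% lower after adjustment. No total rank passed either, with 2 of 8 at an unadjusted p under 0.05 (26.8% of all genes), while 0.502% of all genes were higher and 11.6% lower after adjustment. The median difference was −0.79 over the 8 genes and −0.24 over all genes. Bak1 differed by −1.255 (SE 0.40, limma adjusted p = 0.0719). It passed with a −log10 q-value of at least 3 (−1.36, adjusted p = 0.0411) and within 5 kb (−0.91, adjusted p = 0.0473). With equal lists it did not (−0.60, adjusted p = 0.273). With 1 library left out the regions closed numbered 3 to 11, the 11 without Th1 WT replicate 1. The rule is then looser, so this count can only stay or rise.

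The question behind the knockout comparisons is what the Ets1 super-enhancer does in each cell state. In polarized cells few regions of the family were opened or closed. The median difference in total rank over the family was 0.54 in Th1 KO and 0.12 in Th2 KO, against 0.12 and 0.03 over all genes. In strength it was 0.23 and 0.06, against 0.07 and 0.02 over all regions. In Th1 KO against Th1 WT, 0 of 57 regions opened, against 8.76% of all, and 2 of 55 closed (3.64%, against 3.96%). These were chr1:106666307-106667089 in Bcl2, at 2.10 and 54.2 in Th1 WT, and chr2:152741498-152742127, 16.6 kb downstream of Bcl2l1, at 22.6 and 6.49 in Th1 WT. In Th2 KO against Th2 WT, 1 of 61 opened (1.64%, against 4.56%), at chr7:45481394-45481785 near Bax within Dhdh, where Th2 KO stood at 24.0 and 1.18. Closed were 3 of 63 (4.76%, against 3.83%). They were chr1:106639332-106639711 in Bcl2, at 28.3 and 26.3 in Th2 WT, chr1:106581737-106582177 in Bcl2, at 56.7 and 63.4, and chr3:95672556-95673319 downstream of Mcl1, at 25.0 and 4.39. Most of these peaks were weak ones.

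No family region differed in strength between KO and WT in Th1 or in Th2 cells by limma, with 0 and 2 of 25 at an unadjusted p under 0.05 (10.8% and 7.42% of all regions), and 0% of all regions passed after adjustment in either. No total rank differed, with 0 of 8 genes at an unadjusted p under 0.05 in both (11.9% and 8.46% of all genes), while after adjustment 0.323% of all genes were higher and 0.0231% lower in Th1 KO and 0% in Th2 KO. The largest differences were 1.14 at Bbc3 in Th1 KO (SE 0.52, adjusted p = 0.435) and −0.95 at Bcl2l1 in Th2 KO (SE 1.12, adjusted p = 0.904). The standard errors ran from 0.40 at Bak1 to 1.14 at Bcl2. Each rests on 1 estimate of spread over all 6 groups, the naive technical replicates included. With polarized libraries only, the standard error was 1.39 at Bcl2 and 0.425 at Bak1, while at Bax it was lower, at 0.40 against 0.45. Differences within the standard errors were not detectable, and larger ones could also fail to pass, as that at Bbc3 in Th1 KO did. Leaving out 1 library loosens the rule for opened and closed regions, so the presence counts can then only stay or rise. Opened numbered 8 in Th1 KO without Th1 WT replicate 1 and 5 in Th2 KO without Th2 KO replicate 1 or Th2 WT replicate 1. Closed numbered 8 in Th1 KO without Th1 WT replicate 2 and 8 in Th2 KO without Th2 KO replicate 1. The shares over all regions under the looser rule are not given here.

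More family regions were opened or closed between genotypes in naive than in polarized cells, in shares near those of all regions. The naive libraries of a genotype are technical replicates of 1 sample, unlike the Th1 and Th2 libraries. In naive KO against naive WT, 6 of 53 regions opened (11.3%, against 8.67% of all) and 15 of 76 closed (19.7%, against 20.9%). Opened were 2 in Bcl2, chr1:106552905-106553175 (65.8 and 45.6 in naive KO) and chr1:106570961-106571287 (44.3 and 11.9), and 4 in the body of Bcl2l1. Those of Bcl2l1 were chr2:152769812-152770087 (6.01 and 34.8), chr2:152811237-152811528 (49.5 and 47.4), chr2:152814257-152814693 (13.1 and 14.6) and chr2:152817539-152818139 (26.6 and 36.1). All 6 had a peak in the naive KO libraries and in no other library. Closed were 5 in Bcl2, 4 at Bbc3, 3 at Bcl2l11 and 1 each at Bcl2l1, Mcl1 and Bak1, at percentiles of 2.17 to 57.8 in naive WT. They lay at chr1:106577759-106578159, chr1:106602443-106602972, chr1:106661702-106662025, chr1:106663071-106663457 and chr1:106697180-106697585 in Bcl2, and at chr7:16310967-16311354 in Bbc3, with chr7:16330486-16330837, chr7:16331788-16332118 and chr7:16332257-16332543 in Sae1 beside it. At Bcl2l11 they were chr2:128117465-128118210, chr2:128158606-128159359 and chr2:128168135-128168463, and the single ones chr2:152810142-152810659 in Bcl2l1, chr3:95681184-95681680 near Mcl1 and chr17:26999911-27000507 near Bak1. Without naive KO replicate 2, where the rule is looser and the counts can only stay or rise, 12 opened and 26 closed.

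**Figure D4:**
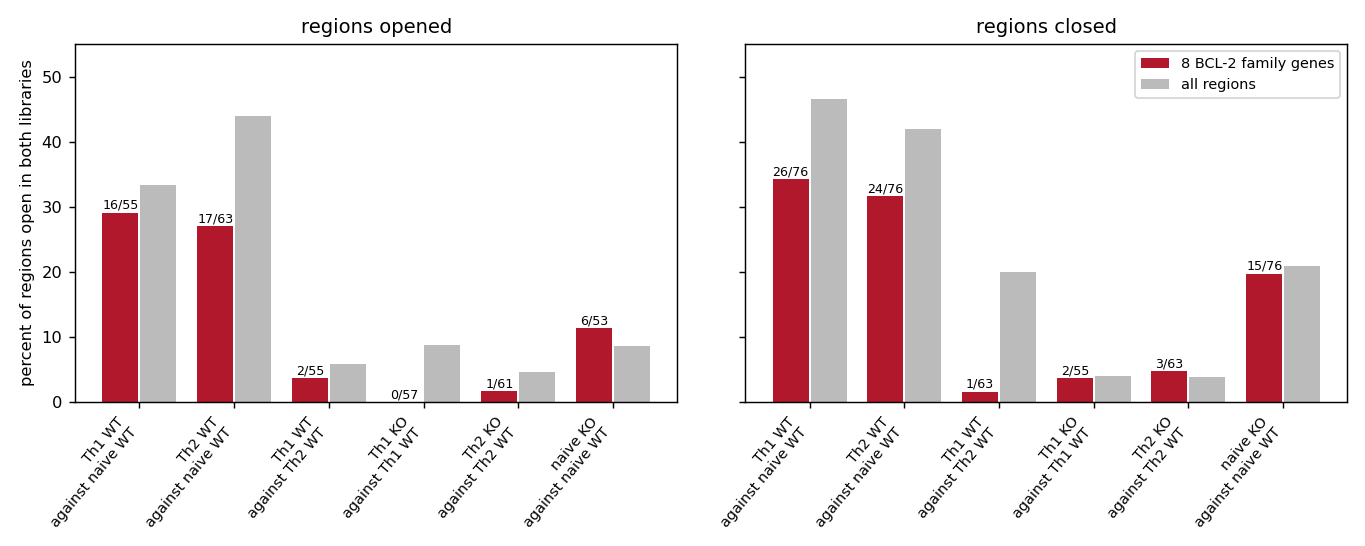
Percent of regions opened (left) and closed (right) in each comparison, for the family (red, with counts above the bars) and for all regions (grey). The family's share is below that of all regions where polarized WT is set against naive WT, and the naive KO bars read 11.3% opened and 19.7% closed.

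None of the 25 regions open everywhere differed in strength between naive KO and naive WT by limma, with 0 at an unadjusted p under 0.05 (11.3% of all regions), while 0.0824% of all regions were higher and 0.172% lower after adjustment. Total rank was lower at 3 genes, with 13.5% of all genes lower and 1.83% higher. Bcl2 changed by −4.53 (SE 1.14, adjusted p = 0.0259), Bcl2l11 by −2.51 (SE 0.53, adjusted p = 0.0123) and Bbc3 by −2.16 (SE 0.52, adjusted p = 0.0215). With equal lists no call remained, at −0.51 (adjusted p = 0.880), −0.65 (adjusted p = 0.361) and −0.13 (adjusted p = 0.948), and leaving out any 1 naive library left 0 calls. The naive KO lists are those with B cell and red cell genes open, as given above, and their part in these differences was not tested. Since both naive libraries of a genotype come from 1 sample, genotype and sample cannot be told apart. The knockout difference in naive cells was itself lower than that in Th1 cells at Bcl2l11 and Bbc3, and lower than that in Th2 cells at Bbc3, with 8.85% and 5.74% of all genes lower in these tests. With equal lists none of the 3 calls was made, and none held with every library left out in turn. No family region passed such a test of strength, with 1 of 25 at an unadjusted p under 0.05 in each.

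The wider apoptosis machinery was followed in 31 further genes, of which 30 could be tested. In Th1 WT against naive WT total rank was higher at 1 and lower at 13, with a median of −0.48, beside 7.77% higher and 36% lower among all genes. In Th2 WT it was higher at 4 and lower at 5, with a median of −0.10, beside 17.1% and 26.3%. Fasl, the ligand of the death receptor Fas, changed by −4.25 (SE 0.39, adjusted p = 4.1e-05) in Th1 WT and −4.85 (SE 0.39, adjusted p = 2.2e-05) in Th2 WT. Both calls of Fasl held with equal lists, at −3.97 and −4.88. In Th1 WT Cflar, Vdac2 and Bcl2l14 also changed, by −3.11, −1.55 and −1.45 (SE 0.56, 0.33 and 0.35), and with equal lists all 3 calls were lost, at −1.17, −0.66 and −0.44 (adjusted p = 0.0523, 0.154 and 0.261). Among the others in Th2 WT, Bok rose by 1.06 (SE 0.16), and Birc3 and Tnfrsf10b changed by −1.18 and −1.03 (SE 0.26 and 0.32). With equal lists the call of Birc3 was lost, at −0.40 (adjusted p = 0.0819). Casp8, the initiator caspase of death receptors, changed by −1.76 (SE 0.31, adjusted p = 0.00144) in Th1 WT and by 1.04 (SE 0.31, adjusted p = 0.0204) in Th2 WT. With equal lists these were −0.58 (adjusted p = 0.135) and 1.08 (adjusted p = 0.0118). In Th1 WT against Th2 WT, 5 were lower and 0 higher, beside 11.6% and 0.502% of all genes, Casp8 by −2.80 (SE 0.31, adjusted p = 0.00123), and −1.66 with equal lists (adjusted p = 0.0104), together with Bcl2l14, Vdac2, Bok and Diablo. With equal lists the call of Bcl2l14 held, at −1.28 (adjusted p = 0.0261), and those of Vdac2, Bok and Diablo were lost, at −0.51, −0.47 and −0.32 (adjusted p = 0.372, 0.266 and 0.342). In Th1 and Th2 KO against WT 0 of the 30 passed. In naive KO against naive WT 1 was higher and 7 lower, beside 1.83% and 13.5% of all genes. The B cell, red cell and chromosome Y gene starts differ between the same libraries, and their part was not tested. Bmf, a further BH3-only gene, rose by 1.28 (SE 0.30, adjusted p = 0.0176), and by 1.70 with equal lists (adjusted p = 0.0387). Cflar, the gene of the caspase-8 inhibitor c-FLIP, changed by −2.92 (SE 0.56, adjusted p = 0.00815), and by −1.15 with equal lists (adjusted p = 0.139). Fasl, Bcl2l14, Birc2 and Casp8 changed by −1.53, −1.41, −1.25 and −1.09 (SE 0.39, 0.35, 0.24 and 0.31). With equal lists none of these 4 calls remained, at −1.39, −0.53, −0.18 and 0.06 (adjusted p = 0.160, 0.320, 0.661 and 0.999).

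Patterns most like those of the members were looked for among genes with a peak in every library, at least 1 Mb away. Over the 12 libraries, the total rank of Bcl2 followed that of Ppp1cb with a Pearson correlation of 0.993, that of Bax followed Lta, Robo3 and Tnf with 0.966, 0.965 and 0.964, and that of Bbc3 followed Cep78 with 0.968. Pmaip1 was most like Gm39270 (0.961), Mcl1 like Srcin1 (0.948), Bak1 like Cd48 (0.950), Bcl2l1 like Ssh2 (0.935) and Bcl2l11 like Gm8251 (0.929). Between 14195 and 14284 genes were compared with each, and the points share list length and cell state.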

How the data were processed

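The deposited files are 12 peak lists, 1 per library. Reads were aligned to GRCm38 with BWA, treated with Picard and called with MACS2, per the submitters' processing notes, without versions. Every list gives a score (10 times the −log10 q-value without decimals), a fold enrichment ratio, a −log10 p-value and a −log10 q-value, as the authors deposited them, and no read counts, so intervals for counting error could not be given. Peaks on chromosomes 1 to 19 and X were merged across libraries, by 1 bp of overlap, into 110642 regions. The gene table (RefSeq, GRCm38.p6) gave gene bodies but not exons, so exon and intron were not used here.

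Ranks within a list were fitted with limma 3.58.1 in R 4.3.3, trend on, over 6 groups, with Benjamini-Hochberg adjustment over all regions or genes and a threshold of 0.05. Strength used the 14561 regions with a peak in all libraries, and total rank the 17340 protein-coding genes with a peak in at least 2 libraries. Tables were made with pandas 2.3.3, numpy 2.4.6 and scipy 1.17.1 in Python 3.11.15, and plots with matplotlib 3.10.9. The fits were tested on simulated data. Members and gene lists were chosen with earlier results of these data known. Named were all members, their start regions, regions opened or closed in a knockout comparison or past the threshold, up to 6 apoptosis genes per comparison and the closest patterns, unless stated otherwise, and a result that the rule names is not reported here. Alternatives were equal list lengths, a −log10 q-value of at least 3, 5 kb on each side, ranks of fold enrichment, overlap of at least 0.5 of a region, absent peaks ranked lowest, polarized libraries only, a replicate block and each library left out. Ranks taken again within the tested regions and fits without naive KO libraries were added after seeing the data.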

Additional observations from a re-analysis of the deposited data

Results flagged for a closer look

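In the fit as reported, the knockout difference in total rank differed between cell states at Bcl2l11 and Bbc3. At Bcl2l11 the difference of naive KO from naive WT was lower than that of Th1 KO from Th1 WT, the gap being −3.08 (SE 0.75, limma adjusted p = 0.0347), made up of −2.51 in naive and 0.57 in Th1 cells. At Bbc3 it was lower too, the gap being −3.31 to Th1 cells (SE 0.74, adjusted p = 0.0249) and −2.91 to Th2 cells (SE 0.74, adjusted p = 0.0467), made up of −2.16 in naive, 1.14 in Th1 and 0.75 in Th2 cells. With lists of equal length the 3 values were −0.75 (adjusted p = 0.498), −0.79 (adjusted p = 0.422) and −0.90 (adjusted p = 0.393). The calls did not hold with every library left out in turn. The gaps then ranged over −3.90 to −2.25 at Bcl2l11, and at Bbc3 over −4.10 to −2.51 for Th1 and −3.30 to −2.52 for Th2 cells. Both naive libraries of a genotype come from 1 sample, so genotype and sample cannot be told apart there. The naive KO lists held 41075 and 43823 peaks and those of naive WT 52571 and 56195, and the part of B cell and red cell DNA in the naive KO libraries was not tested.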

How the results depend on the processing

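The limits lie in short and unequal lists, unknown depth, 2 libraries a group and naive libraries from 1 sample per genotype. No family call as reported passed the threshold in the other direction under any alternative run. Among the other apoptosis genes, Casp8 in naive KO against naive WT was lower as reported and 0.06 with equal lists, where it did not pass. Bcl2 in Th1 WT against naive WT was no call as reported. It passed as higher with equal lists (3.81) and as lower with a −log10 q-value of at least 3 (−2.94). Of 16 total rank calls, 8 were kept with equal lists, 8 with every library left out in turn, 9 with ranks of fold enrichment and all 9 refitted without naive KO libraries. Of 20 strength calls, 12 were kept with ranks of fold enrichment, and 10 of the 17 refitted with equal lists.

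With equal lists, total rank calls were 0 in naive KO against naive WT (3 as reported) and 3 in Th1 WT against naive WT (5). Strength calls in Th1 WT against naive WT were 1, regions closed 6 in Th1 KO, 1 in Th2 KO, 9 in naive KO and 15 in Th1 WT against naive WT, and regions opened 2 in Th2 KO and 5 in Th1 WT against Th2 WT. With a −log10 q-value of at least 3, total rank calls were 8 in Th1 WT against naive WT and 1 in Th1 WT against Th2 WT, regions closed 0 in Th1 KO and 4 in Th1 WT against Th2 WT, and regions opened 2 in Th2 KO, 3 in naive KO, 6 in Th1 WT against naive WT and 0 in Th1 WT against Th2 WT. Within 5 kb, where fewer regions lie, 1 total rank call was made in Th1 WT against Th2 WT. Regions closed were then 1 in Th1 KO, 8 in naive KO and 15 in each WT comparison with naive cells, and opened 0 in Th2 KO, 10 in Th1 WT and 11 in Th2 WT against naive WT, and 1 in Th1 WT against Th2 WT. Where a peak had to cover 0.5 of a region, closed were 5 in Th1 KO and 7 in Th1 WT against Th2 WT, and opened 2 in Th2 KO.

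With absent peaks ranked lowest 115 family regions were tested, and strength calls were 26 in naive KO, 3 in Th2 KO, 53 in Th1 WT and 58 in Th2 WT against naive WT, and 5 in Th1 WT against Th2 WT. The knockout difference then differed between Th1 and Th2 cells at 2 regions, between naive and Th1 cells at 18 and between naive and Th2 cells at 22. The shares over all regions in this fit are not given here, so these counts are not read as a result about the family. Since absent peaks enter it as the lowest rank, list length enters it too. Strength calls in Th1 WT against naive WT were 4 without naive KO libraries and 4 with ranks taken again. The cause was not tested.

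With 1 library left out, total rank calls ranged over 0 to 3 in naive KO, 3 to 6 in Th1 WT against naive WT and 0 to 1 in Th1 WT against Th2 WT, the 1 without Th1 WT replicate 1. Strength calls ranged over 0 to 7 in Th1 WT and 3 to 6 in Th2 WT against naive WT. Regions opened ranged over 0 to 8 in Th1 KO, 2 to 5 in Th2 KO, 6 to 12 in naive KO and 3 to 9 in Th1 WT against Th2 WT, and regions closed over 3 to 8, 3 to 8, 16 to 26 and 3 to 11 in the same comparisons. These region counts can only stay or rise when a library is left out, because the rule then asks for fewer libraries. Replicate numbers of polarized groups did not deviate together (correlations of −0.0265 to 0.0223), so they share only a number. A fit with the number as a replicate block made 1 total rank call in Th1 WT against Th2 WT, where 0 were reported.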

Other observations

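In KO cells total rank changed at Fasl, the ligand of Fas, and at Bmf, a BH3-only gene, in both polarized states. Fasl had 2.81 and 3.70 in Th1 KO and 2.78 and 2.26 in Th2 KO, against 6.31 and 5.78 in naive KO, and changed by −2.79 and −3.52 (SE 0.39 each, adjusted p = 0.000873 and 0.000161). Bmf had 0.983 and 1.17 in Th1 KO and 1.75 and 1.53 in Th2 KO, against 3.93 and 3.25 in naive KO, and changed by −2.51 and −1.95 (SE 0.30 each, adjusted p = 0.000393 and 0.000863). Both genes passed the threshold with equal lists in both states. In naive WT, Fasl had 7.47 and 7.68 and Bmf 2.05 and 2.56. The naive KO libraries had a peak at the start of 9 and 8 of 9 B cell genes, at globin genes and at no chromosome Y gene, and the part of this in the differences was not tested.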
